A study of Mus musculus with 5 samples.

Results

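The heat shock chaperones described here are 10 of the 18783 genes in the authors' deposited table, taken by gene symbol: Hspa1a, Hspa1b, Hspb1, Hsph1, Hsp90aa1, Dnajb1, Hspa8, Hsp90ab1, Hspd1 and Hspe1. The set was chosen by the group means and ratios of these genes in both comparisons, which were already known, so the values below are descriptions and the p-values quoted are the authors' own, except those given with the GC trend removed or adjusted over fewer genes, which were computed from the authors' values. By their known roles they fall into 3 classes. Hspa1a, Hspa1b, Hspb1, Hsph1, Hsp90aa1 and Dnajb1 are stress-inducible cytosolic chaperones, Hspa8 and Hsp90ab1 are their constitutive cytosolic counterparts, and Hspd1 and Hspe1 encode the chaperonin pair of the mitochondrial matrix, so the label of cytosolic chaperones holds for 8 of the 10.

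RNA was sequenced from primary astrocyte cultures of C57BL/6 mice, prepared from pups of postnatal day 0 to 1 and harvested on day 12 in vitro. The Control group (2 libraries) was naive. The Aβ group (2 libraries) received 1 µM amyloid-β peptide from day 7 in vitro for 5 days, and the Aβ+DFMO group (1 library) received the same peptide together with 50 µM DFMO, a blocker of ornithine decarboxylase. Nothing in the labels says if a group's libraries are separate cultures, so the p-values reflect only a spread between these libraries, which may be technical.

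Heat shock proteins bind unfolded stretches of other proteins. Hsp70 proteins do so in cycles of ATP hydrolysis that are started by J proteins such as DNAJB1 and reset by exchange factors such as HSPH1 (Hsp110), Hsp90 proteins take over clients late in folding, and small heat shock proteins such as HSPB1 hold aggregating proteins. In resting cells the transcription factor HSF1 is held inactive by chaperones, and misfolded protein releases it to bind heat shock elements, inverted repeats of the unit GAA, in the promoters of the inducible genes. In the brain, inducible Hsp70 is a common marker of proteotoxic stress, and glia can express it more readily than neurons do.

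The promoters of Hspa1a and Hspa1b are shown because these are the pair that rose with Aβ. Each gene is a single exon on chromosome 17 of the GRCm38 build, minus strand, Hspa1a at 34969190 to 34972156 and Hspa1b at 34956436 to 34959238, with 9951 bases between them. The 250 bases before each start site (RefSeq, GRCm38.p6, minus strand) are printed 5′ to 3′ on the gene's own strand. Capitals mark the match to a pair of heat shock units, GAANNTTC or TTCNNGAA.
Hspa1a, chr17:34972157-34972406: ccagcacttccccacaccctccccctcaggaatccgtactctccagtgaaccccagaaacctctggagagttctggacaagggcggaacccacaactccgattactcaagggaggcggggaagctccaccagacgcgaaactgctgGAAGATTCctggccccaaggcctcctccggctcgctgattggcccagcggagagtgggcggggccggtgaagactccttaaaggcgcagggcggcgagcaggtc
Hspa1b, chr17:34959239-34959488: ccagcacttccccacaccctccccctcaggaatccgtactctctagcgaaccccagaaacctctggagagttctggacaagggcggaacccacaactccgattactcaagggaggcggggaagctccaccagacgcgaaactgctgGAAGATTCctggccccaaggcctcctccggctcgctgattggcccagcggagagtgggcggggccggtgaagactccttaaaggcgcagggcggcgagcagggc
The sequences are 98.8% identical. Counted from the first printed base, with the Hspa1a base first, they differ by 3 substitutions, C44T, T47C and T249G. The match lies at the same place in both, with its first base 104 bases before the start site, and holds none of the differences.

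The other promoters with a match are shown by the match and 5 bases on each side, to set the same motif in genes that rose with Aβ beside genes that did not.
Hspe1, chr1:55088054-55088081, plus strand: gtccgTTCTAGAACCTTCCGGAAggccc
Hspb1, chr5:135887797-135887834, plus strand: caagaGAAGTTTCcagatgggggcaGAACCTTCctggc
Hsph1, chr5:149636357-149636374, minus strand: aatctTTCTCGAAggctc
The Hspe1 stretch is 3 overlapping matches that form a run of alternating units. The same 28 bases, read on the opposite strand, also lie before an annotated start of Hspd1, and the annotated genes overlap head to head by 112 bases. RefSeq promoters, 300 bases from 250 before to 50 after a start, were matched for 7 of the 10 genes. None was at hand for Hsp90aa1 or for the constitutive Hspa8 and Hsp90ab1, so inducible and constitutive members cannot be compared here. Both motifs read the same on either strand. Of the 7 genes, 6 held at least 1 match and Dnajb1 held none, whereas 17.0% of all 27018 genes in the RefSeq table did. Counted by promoter, 7 of the 10 promoters of these genes held a match, against 15.1% of all 32841 promoters of that length. A run of 3 alternating units (GAA, TTC, GAA or the reverse, each spaced by 2 bases) was found for Hspd1, Hspe1 and Hsph1, in the last of these just after the start, and in 0.663% of all genes (0.603% of all promoters), and Hspa1a and Hspa1b held only the shorter pair in this window. Only exact GAA and TTC units were sought, so stretches with imperfect units were not counted for any gene. A match describes the letters of the window and is no evidence of binding.

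Read depth differed between the libraries, and the levels of cell type markers differed between the groups. The Control and Aβ libraries had 46886111 to 105544237 reads, 9.72 to 21.9 times as many as the 4825677 reads of Aβ+DFMO, and the share of reads lying fully in exons was 84.4% to 85.2%. Astrocyte genes were abundant, with Gfap at a mean of 57209 and Slc1a3 at 37554 in Control in the authors' deposited table, and genes of other cells were present too, such as the oligodendrocyte gene Mbp (4182), the macrophage gene Csf1r (2463) and the collagen gene Col1a1 (7986). Of 7 marker lists, the summed level of 10 microglia and macrophage genes went from 24546 in Control to 18589 in Aβ and 15056 in Aβ+DFMO, that of 10 oligodendrocyte lineage genes from 47032 to 46413 and 25458, and that of 10 astrocyte genes from 186799 to 185843 and 146536. The sums of the fibroblast and mural list (8 genes) went from 80172 to 82591 and 96201, of the neuron list (6 measured of 8) from 12977 to 12653 and 12878, of the ependyma list (5 genes) from 5103 to 4992 and 2815, and of the endothelium list (4 measured of 6) from 664 to 663 and 797. Single genes can carry such a sum: Acta2 gave 65706, 66644 and 81013 of the fibroblast and mural sums. The medians went from 1167 to 1211 and 1099 for fibroblast and mural genes and from 67.3 to 75.4 and 112 for neuron genes. They went from 136 to 133 and 134 for ependyma genes and from 89.0 to 99.9 and 63.3 for endothelium genes. Fewer cells of a type and less RNA per cell cannot be told apart in such bulk samples, and the part of these shifts in the chaperone values was not tested. The part of the GC trend, described below, in the marker levels of the single Aβ+DFMO library was not tested either.

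The constitutive chaperones were far more abundant than the inducible Hsp70 genes. Levels between genes are compared here as normalized units per kb of transcript, using the longest coding GENCODE M21 transcript. Hsp90ab1, the constitutive Hsp90, had 17309 units per kb in Control, and Hspa8, the constitutive Hsc70 that uncoats clathrin vesicles and folds new proteins, had 14080. The inducible Hsp90aa1 followed at 8228 units per kb, so it was not scarce in untreated cells. Then came the mitochondrial pair, Hspd1 at 2001 and Hspe1 at 1975 units per kb, whose levels per kb differed by a factor of 1.01. Hspb1 (1888), Hsph1 (1141) and Dnajb1 (376) lay lower in Control. Hspa1a and Hspa1b were lowest, at 104 and 91.8 units per kb, near the middle of all genes with a length (percentiles 40.9 and 39.1), whereas Hspa8 and Hsp90ab1 lay at percentiles 99.6 and 99.7. Group means carry no spread of their own, so whether neighbours in this order differ beyond their spread was not tested.

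**Figure D1:**
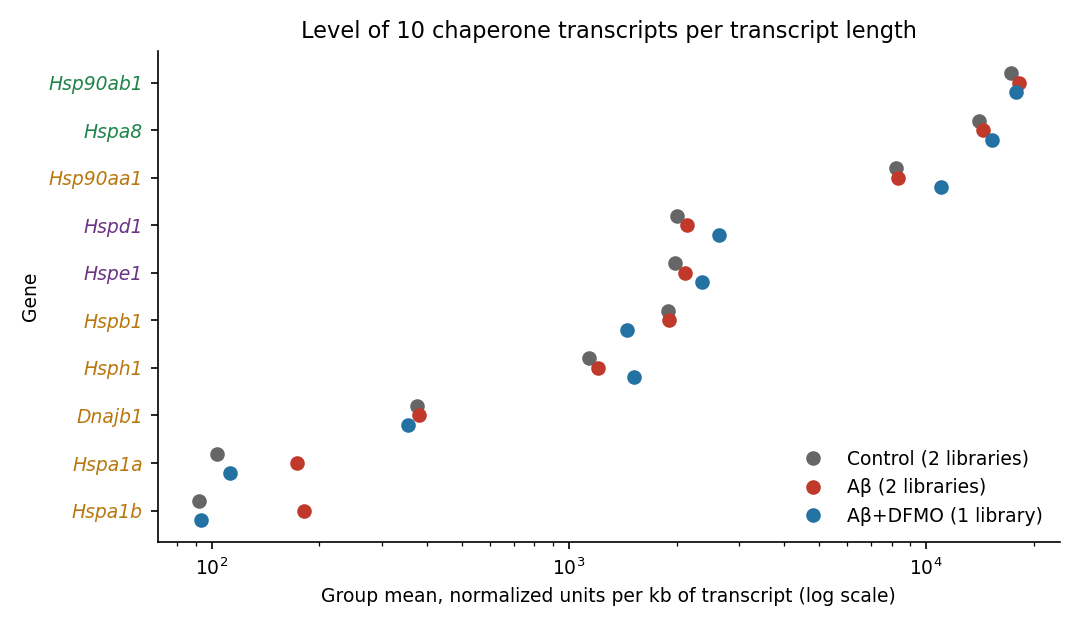
Group means of the 10 chaperone genes in normalized units per kb of transcript (x axis, log scale), 1 row per gene, for Control, Aβ and Aβ+DFMO; gene names are orange for inducible, green for constitutive and purple for mitochondrial chaperones. Hspa1a and Hspa1b sit lowest and are the pair whose Aβ point stands clear of Control, while Hsp90aa1, Hsph1, Hspd1, Hspe1 and Hspa8 are highest in Aβ+DFMO.

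Many of these genes share sequence with near-identical copies, which touches the level of each. Of the 75-base words in the Hspa1b transcript, 75 being the read length in the labels, 55.8% also occur in Hspa1a, and aligned bases of the 2 transcripts were 93.6% identical. For Hspa8, 68.6% of the words occur in another annotated gene, mainly processed pseudogenes, and the authors' deposited table lists the Hspa8 copy Gm15459 at 33371 in Control, next to 33707 for Hspa8 itself. The Hsp90aa1 copies Gm12346 and Gm5844 are listed at 12287 and 3683 beside 26996 for Hsp90aa1, the Hspd1 copy Hspd1-ps3 at 2418 beside 4850, and the Hspb1 copy Hsp25-ps1 at 987 beside 1756 in the authors' deposited table. The sources used here do not say how reads that fit several places were counted, so the deposited level may hold only part of a gene's reads: Hspa8 held 48.1% and Hsp90aa1 62.8% of the summed signal of gene and copies in Control. Hsph1 and Dnajb1 shared no such word with another gene, and for Hsp90ab1 it was 0.736%.

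Aβ was compared with Control to see how the chaperones differed after exposure to the peptide. Hspa1b and Hspa1a, the inducible Hsp70 genes, were higher in Aβ, and the other 8 chaperones had nearly the same mean in both groups. In the authors' deposited table Hspa1b had a mean of 257 in Control, 506 in Aβ and 262 in Aβ+DFMO. Its mean in Aβ was therefore 1.97 times that in Control (log2 ratio 0.98, implied standard error 0.199, DESeq2 adjusted p = 0.000612), where the implied standard error is the size of the log2 ratio divided by the normal deviate of its p. Hspa1a had means of 307, 513 and 334 in the authors' deposited table, a 1.67-fold rise with Aβ (log2 ratio 0.74, implied standard error 0.186, DESeq2 adjusted p = 0.0254). Since reads of these 2 genes can be interchanged, their sum is the firmer quantity: it was 565 in Control, 1020 in Aβ and 596 in Aβ+DFMO, a log2 ratio of 0.85 for Aβ over Control. Over all genes, 0.287% were called at an adjusted p under 0.05, but nothing is read from 2 of the 10 here because these values were known when the genes were picked.

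The remaining inducible chaperones were not called. In the authors' deposited table Hspb1, which guards actin and holds misfolded protein, had means of 1756 in Control and 1767 in Aβ, with a log2 ratio of 0.01 and a 95% interval of -0.23 to 0.25 from the implied standard error. Dnajb1, the J protein that works with inducible Hsp70, had means of 1126 and 1136 (0.01, -0.22 to 0.24) in the authors' deposited table. For Hsph1, the Hsp110 exchange factor, the means were 4337 and 4584 (0.08, -0.08 to 0.24), and for Hsp90aa1 they were 26996 and 27435 (0.02, -0.11 to 0.16) in the authors' deposited table. No test between these genes and Hspa1a or Hspa1b was made.

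Nor was a difference called for the constitutive or the mitochondrial genes. Hspa8 had means of 33707 in Control and 34565 in Aβ (log2 ratio 0.04, 95% interval -0.10 to 0.17) and Hsp90ab1 of 43618 and 45770 (0.07, -0.07 to 0.20) in the authors' deposited table. Of the chaperonin genes, Hspd1, the Hsp60 ring, had means of 4850 and 5170 (0.09, -0.07 to 0.26) and Hspe1, its Hsp10 lid, of 1529 and 1631 (0.09, -0.14 to 0.33) in the authors' deposited table. Their adjusted p-values from the authors' DESeq2 test were all 1.00 after rounding, which does not show that they were unchanged. All 10 log2 ratios lay above 0, as did those of 9597 of all 18783 genes. The median of the 10 was 0.07, against 0.00 over all genes. Nothing is read from this either, because these ratios were known when the genes were picked.

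**Figure D2:**
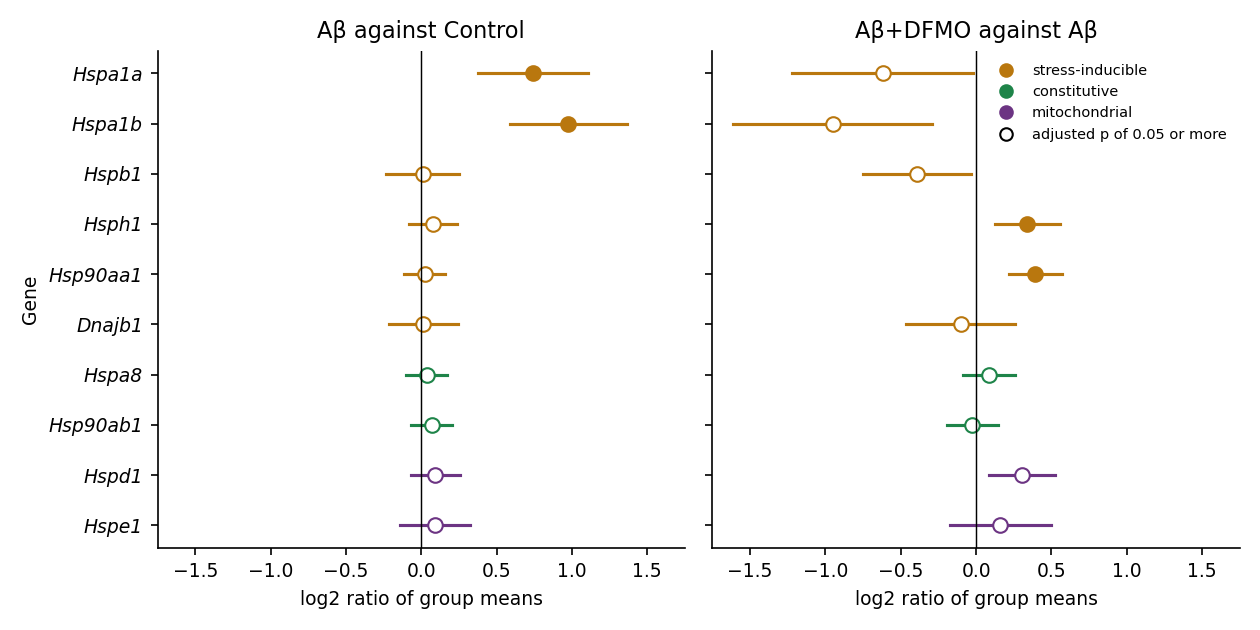
Log2 ratio of group means (x axis) of each chaperone gene for Aβ against Control (left) and Aβ+DFMO against Aβ (right), with bars for the 95% interval from the implied standard error; filled points passed the authors' adjusted p threshold of 0.05. On the left the points of Hspa1a (0.74) and Hspa1b (0.98) stand apart from the other 8, which lie between 0.01 and 0.09; on the right Hsph1 and Hsp90aa1 are the filled points.

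In terms of the Hsp70 pool, the rise was small. Hspa1a and Hspa1b together made up 1.37% of the summed level per kb of Hspa1a, Hspa1b and Hspa8 in Control, 2.39% in Aβ and 1.33% in Aβ+DFMO. Hspa8 was thus 72.1 times as abundant per kb as the inducible pair in Control and 40.8 times in Aβ. These shares count Hspa8 without its listed copies.

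Of 101 measured genes in 11 further lists (other Hsp70, J protein and small heat shock genes, Hsp70 exchange factors, Hsp90 co-chaperones, the TRiC and prefoldin complexes, mitochondrial and ER chaperones, heat shock factors and other HSF1 targets), 0 were called by the authors' DESeq2 test, where 0.287% of all genes were called. In the same test 0 had an unadjusted p under 0.05, where 1.72% of all genes did. Both counts are near the share over all genes, so nothing is read from either. Their log2 ratios had a median of 0.02, with 67 above 0 and 34 below. The list of 17 other HSF1 targets ran from -0.10 to 0.13 with a median of 0.01. Within it, Bag3, the exchange factor that directs clients to autophagy, had means of 3266 in Control and 3255 in Aβ, and Chordc1, an Hsp90 co-chaperone, of 2669 and 2616 in the authors' deposited table. Hsf1 itself had means of 825 and 820 in the authors' deposited table (log2 ratio -0.01). Among other small heat shock genes, Hspb6 had means of 3679 and 3580 (-0.04), and Lonp1, a mitochondrial matrix protease, of 1792 and 1838 (0.04) in the authors' deposited table.

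**Figure D3:**
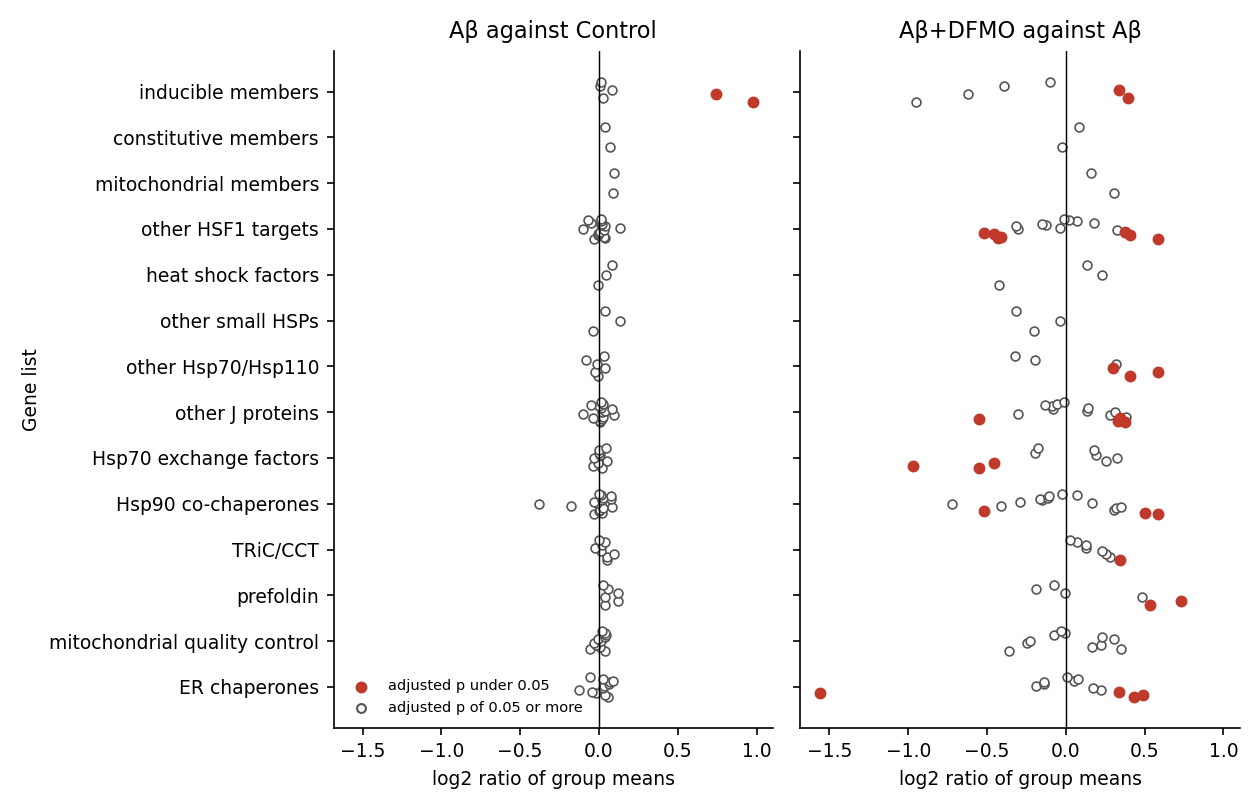
Log2 ratio of group means (x axis) of every listed chaperone gene with an Aβ mean of at least 200, by list (y axis), for Aβ against Control (left) and Aβ+DFMO against Aβ (right); red points passed the authors' adjusted p threshold of 0.05. On the left the 2 red points are Hspa1a and Hspa1b, and on the right red points lie on either side of 0.

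Aβ+DFMO was compared with Aβ to see how the chaperones differed when DFMO was added. It uses the same Aβ libraries as the first and a single shallow Aβ+DFMO library, which gives no spread of its own. Hsp90aa1 and Hsph1 were higher in Aβ+DFMO, and Hspa1a and Hspa1b had means near those of Control without being called. The calls of Hsp90aa1 and Hsph1 were lost when a trend with GC content, described below, was taken out. In a single library that trend cannot be told apart from an effect of DFMO. In the authors' deposited table Hsp90aa1 had means of 27435 in Aβ and 36058 in Aβ+DFMO (log2 ratio 0.39, implied standard error 0.0882, DESeq2 adjusted p = 0.000456). Hsph1 had means of 4584 and 5798 in the authors' deposited table (0.34, implied standard error 0.110, DESeq2 adjusted p = 0.0290). These 2 of the 10 were called at an adjusted p under 0.05, where 9.18% of all genes were called. Nothing is read from that count either.

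The inducible Hsp70 genes rested on few reads in this library. The authors' deposited table gives Hspa1b means of 506 in Aβ and 262 in Aβ+DFMO (log2 ratio -0.95, 95% interval -1.61 to -0.29, DESeq2 adjusted p = 0.0517). An estimated 35 reads lay behind the second mean, with an exact Poisson interval of 24.4 to 48.7 reads that covers counting error only. Hspa1a had means of 513 and 334 in the authors' deposited table (-0.62, interval -1.22 to -0.02, DESeq2 adjusted p = 0.219) and an estimated 45 reads (32.8 to 60.2). Neither passed, although with p-values adjusted only over genes whose Aβ mean reached 200 Hspa1b did (adjusted p = 0.0332, from the DESeq2 p-values). Their summed mean gave a log2 ratio of -0.77 against Aβ and 0.08 against Control. The summed log2 ratio for Aβ over Control (0.85) and that for Aβ+DFMO over Aβ (-0.77) contain the same Aβ mean. The pattern of up and then down is therefore not evidence from 2 independent comparisons.

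The other chaperones differed less or not past the threshold. The authors' deposited table gives Hspb1 means of 1767 in Aβ and 1348 in Aβ+DFMO (log2 ratio -0.39, DESeq2 adjusted p = 0.184), and Dnajb1 of 1136 and 1058 (-0.10, DESeq2 adjusted p = 0.846). Of the constitutive genes, Hspa8 had means of 34565 and 36665 (0.09, 95% interval -0.09 to 0.26) and Hsp90ab1 of 45770 and 44946 (-0.03, -0.20 to 0.14) in the authors' deposited table. Hspd1 had means of 5170 and 6388 (0.31, DESeq2 adjusted p = 0.0627) and Hspe1 of 1631 and 1824 (0.16, DESeq2 adjusted p = 0.678) in the authors' deposited table. With the same restriction to genes whose Aβ mean reached 200, Hspd1 passed (adjusted p = 0.0403, from the DESeq2 p-values). The Hsp90aa1 share of both Hsp90 genes per kb was 32.2% in Control, 31.5% in Aβ and 38.1% in Aβ+DFMO. Among the near-identical copies, Gm5844 of Hsp90aa1 (0.49, DESeq2 adjusted p = 0.000809) and Hspd1-ps3 of Hspd1 (0.51, DESeq2 adjusted p = 0.00265) were called higher in the authors' deposited table. Summed with their copies, log2 ratios of Aβ+DFMO over Aβ were 0.36 for Hsp90aa1, 0.37 for Hspd1, 0.13 for Hspa8 and -0.43 for Hspb1.

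The direction of these differences ran with GC content. Over the 11660 genes whose mean in Aβ reached 200, the log2 ratio of Aβ+DFMO over Aβ fell with the GC content of the transcript (Spearman's rho -0.71, a description over genes that share these libraries), against 0.12 for Aβ over Control. Hsp90aa1 has a GC content of 43.7%, Hspd1 46.8% and Hsph1 47.4%, and these were the members with the largest positive ratios. Hspb1 (61.7%), Hspa1a (58.9%) and Hspa1b (58.1%) have the highest GC content, and these had the lowest ratios. The trend alone gave 0.21 at the GC content of Hsp90aa1, -0.49 at that of Hspa1a and -0.45 at that of Hspa1b. Aβ+DFMO was a single library, so a trend from that library itself and a trend from DFMO cannot be told apart. Removal of the trend takes out both, and the error of its fit was not carried into the p-values. After removal of this trend, 0 of the 10 members passed, where 1.56% of 18459 genes did. Hsp90aa1 then stood at 0.19 (adjusted p = 0.463 from the implied standard error of the DESeq2 table), Hsph1 at 0.26 (adjusted p = 0.346), Hspa1b at -0.50 (adjusted p = 0.781) and Hspa1a at -0.13 (adjusted p = 0.983). The other 6 members lay between 0.05 and 0.27, so that Hspb1, Dnajb1 and Hsp90ab1, below 0 before, were then above it. In Aβ against Control the trend was nearly flat, and without it Hspa1b (0.97) and Hspa1a (0.74) passed again, where 0.282% of genes did.

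**Figure D4:**
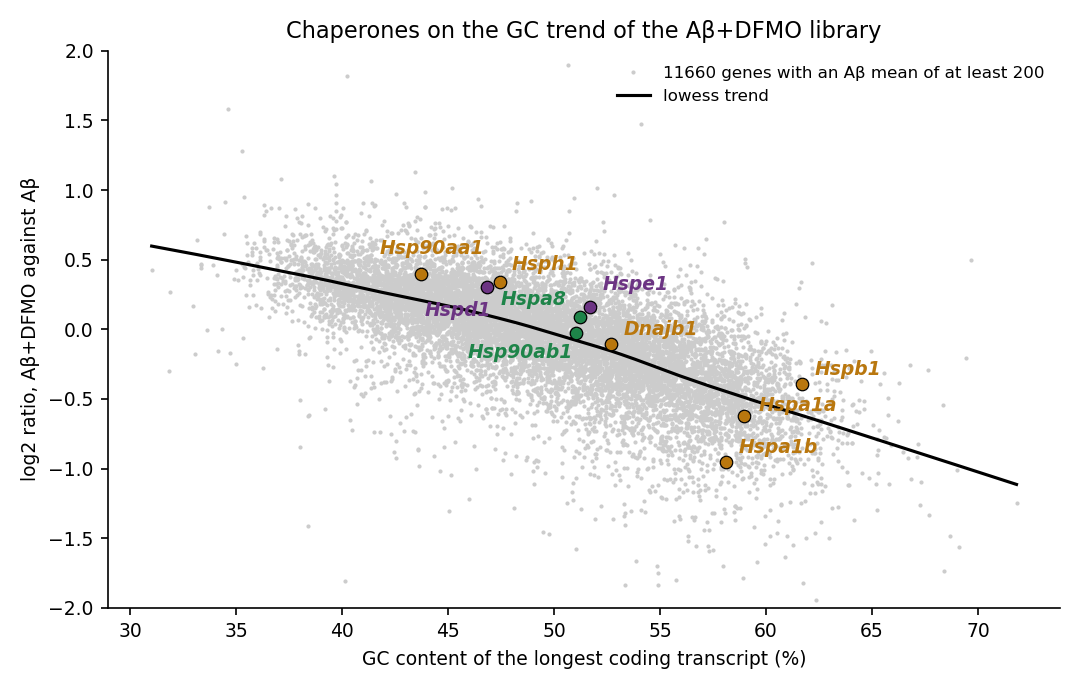
GC content of the longest coding transcript (x axis, %) against the log2 ratio of Aβ+DFMO over Aβ (y axis, shown from -2 to 2), for 11660 genes (grey) with their lowess trend (black line); orange points are inducible, green constitutive and purple mitochondrial chaperones. Hsp90aa1 lies at the low-GC, high-ratio end and Hspa1a, Hspa1b and Hspb1 at the high-GC, low-ratio end of the trend.

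Over the 11 further chaperone lists, 14 of 101 measured genes were called higher and 8 lower in Aβ+DFMO against Aβ, where 9.18% of all genes were called (751 higher and 973 lower of 18783). Once the GC trend was removed 2 of the 101 passed, both higher, where 1.56% of genes did, a share near that background. The counts by list below are descriptions. Some genes are in more than 1 list and are counted in each. Chordc1, Hspa4l, Dnajb4, Bag3 and Fkbp4, for example, are also among the other HSF1 targets. Of the other Hsp70 and Hsp110 genes 3 of 7 rose: Hspa4l (log2 ratio 0.41), Hspa14 (0.58) and Hspa4 (0.30) in the authors' deposited table. Of 16 J proteins 3 rose and 1 fell: Dnajb4 (0.38), Dnaja2 (0.33) and Dnajc7 (0.34), against Dnajb2 (-0.55), in the authors' deposited table. Of the 9 Hsp70 exchange factors and modulators 3 fell, Bag6 (-0.55), Hspbp1 (-0.97) and Bag3 (-0.46), and of 16 Hsp90 co-chaperones Chordc1 (0.59) and Ptges3 (0.50) rose while Fkbp4 (-0.52) fell in the authors' deposited table. Those that rose have GC contents of 35.7% (Chordc1) to 50.9% (Dnajc7) and those that fell of 55.8% (Fkbp4) to 59.9% (Bag6) in these 4 lists.

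The folding complexes and compartments were mixed as well. All 8 TRiC subunits, the cytosolic chaperonin for actin and tubulin, had ratios above 0, as did 9516 of all 18783 genes. The TRiC median was 0.18 against 0.01 over all genes, and 0.10 against 0.02 with the GC trend taken out. Cct2 (0.34) was called in the authors' deposited table, before that step. The prefoldin subunits Vbp1 (0.53) and Pfdn4 (0.73), which hand clients to TRiC, rose, and 4 of 6 were not called in the authors' deposited table. Of 12 ER chaperones Hsp90b1 (0.43), Dnajb9 (0.49) and Dnajc3 (0.34) rose and Sdf2l1 (-1.56, an estimated 17.0 reads) fell in the authors' deposited table. The 11 mitochondrial and 6 small heat shock genes had none called, and neither did the 4 heat shock factors, with Hsf1 at -0.42 (DESeq2 adjusted p = 0.262). Of 17 other HSF1 targets 3 rose and 4 fell; among these the ubiquitin gene Ubb (-0.41) fell and Chordc1 and Hspa4l rose in the authors' deposited table. The 2 genes that passed with the GC trend taken out were the J protein Dnajc7 (0.42) and the exchange factor Bag1 (0.45), the last named after its value was seen.

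For Aβ+DFMO over Control the ratios of the authors' means are given without a test. The log2 ratio was 0.42 for Hsph1, 0.42 for Hsp90aa1, 0.40 for Hspd1 and 0.25 for Hspe1. It was 0.12 for Hspa1a, 0.12 for Hspa8, 0.04 for Hsp90ab1, 0.03 for Hspa1b, -0.09 for Dnajb1 and -0.38 for Hspb1. With the GC trend taken out, Hspa1a stood at 0.60 and Hspa1b at 0.47 above Control, so whether their means in Aβ+DFMO were back at the Control level rests on that trend. The same step turned Hspb1 from -0.38 to 0.24 and Dnajb1 from -0.09 to 0.06, and Hsp90aa1 then stood at 0.22.

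The genes whose 3 group means were most like those of Hspa1b were sought by distance in the pair of log2 ratios among 11212 named genes with at least 20 estimated reads in Aβ+DFMO. The 5 nearest were the histone gene Hist1h2ap (distance 0.17), Lgals3 (galectin-3, 0.30), Gpnmb (a lysosomal glycoprotein of phagocytes, 0.34), Lrp1 (an endocytic receptor, 0.38) and Hspg2 (the matrix protein perlecan, 0.39). Of these, Lgals3 and Gpnmb were called in both of the authors' comparisons and the other 3 in neither. Hspa1a ranked next at 0.41, and the nearest of the other members, Hspb1, ranked at 1907 with a distance of 1.12. Likeness over 3 means, of which the Aβ mean enters both ratios, is a weak measure.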

How the data were processed

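Polyadenylated RNA of 5 libraries was sequenced (Control 2, Aβ 2, Aβ+DFMO 1). STAR 2.7.3a, Partek, DESeq2, FastQC and the builds mm10 and GRCm39 are named in the submitters' processing notes without roles; the sources used here do not give the counter, annotation or filters. The deposited table gives, per the file headers, a least-squares mean per group as normalized signal, the ratio and log2 ratio of these means, and a p-value with its adjusted value for each comparison. Log2 ratios and Benjamini-Hochberg values were checked against the means and p-values. Library reads and the percent of reads in exons were deposited by the authors in a further file. That file names each library's group but not which sample it is, so its values are given by group. Of 14 other columns of values per library none was used, nor was the pathway table. No counts per library were at hand, so the planned edgeR fit was not made and the tests are the authors' DESeq2 results, apart from values with the GC trend removed and p-values adjusted over fewer genes, which were computed here from the authors' ratios and p-values.

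Members and lists were chosen with earlier results of these data known. Named genes were all 10 members, up to 4 called genes per further list by p, or the gene with the smallest p where none was called, and the 5 genes most like Hspa1b; 1 gene that this rule names is not reported here. In the Aβ+DFMO column, 80.5% of 7317 low values (under 27 reads) came out whole (to 0.05 of a read) when divided by 7.46 units, taken as 1 read. GC content came from the longest coding GENCODE M21 transcript (GRCm38), and its trend was fitted by lowess (fraction 0.3, statsmodels 0.14.6) over genes whose Aβ mean reached 200. The correction was tested on simulated data. Promoters are RefSeq's for GRCm38.p6. Alternatives were adjusted p thresholds of 0.01 and 0.1, a minimum Aβ mean of 200, a pseudocount of 10, centring on the median and the GC trend; sums with near-identical copies (at least 20% of 75-base words shared) were added after seeing the data.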

Additional observations from a re-analysis of the deposited data

How the results depend on the processing

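For Aβ against Control, 2 chaperones (Hspa1a and Hspa1b) were called under the main threshold, with an adjusted p threshold of 0.1, a minimum Aβ mean of 200, a pseudocount of 10, centring on the median and with the GC trend taken out, and 1 (Hspa1b) at a threshold of 0.01; of the 101 further genes 0 were called under each. For Aβ+DFMO against Aβ, the count of 2 chaperones became 1 at 0.01, 4 at 0.1, 4 with a minimum Aβ mean of 200, 3 with centring on the median (Hspd1 added, adjusted p = 0.0414 from the DESeq2 values) and 0 with the GC trend taken out. The added genes at 0.1 and with the minimum mean were Hspd1, higher, and Hspa1b, lower. The count of 22 further genes became 11 at 0.01 and 2 with the GC trend taken out, and stayed within 1.5 times the main count otherwise. The median log2 ratio of the 10 chaperones for Aβ+DFMO over Control moved from 0.12 to 0.27 with the GC trend taken out. No direction of a called chaperone reversed under these alternatives.

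Group means alone were used, so leaving out a library, edgeR and DESeq2 on counts were not run. No paired analysis was possible because the table holds group means and no value per library. In the Aβ+DFMO library, Hspa1a and Hspa1b rest on an estimated 45 and 35 reads, whose intervals given above cover counting error only. The smallest difference detectable at this depth was not computed.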
